A study of Homo sapiens with 49 samples.

Results

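The 7 genes described here, MYC, CCND1, E2F1, CCNE2, CDC6, CDKN1A and CDKN1B, carry cells from hormone or growth factor signals into S phase, or hold them back from it. They were taken by name, and each was followed over its GENCODE gene body on hg19 with 100 kb on each side. They are 7 of 20136 protein-coding genes, and their loci held 1740 of the 528044 regions in the 45 deposited lists of ChIP-seq peaks, which are called regions here. Of the 1740 regions, 247 (14.2%) lay at a start site of the gene itself, which means that they overlapped 250 bp either side of any annotated transcript start. A further 143 (8.22%) lay elsewhere in the gene body and 1350 (77.6%) were distal. Of the distal regions, 399 (22.9% of all) lay at the start site of another protein-coding gene in the same window, so a distal region is not assigned to the named gene.

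In many cell types mitogens raise MYC, a transcription factor that dimerizes with MAX and binds E-box sequences, and cyclin D1 (CCND1), which activates CDK4 and CDK6. These kinases phosphorylate the RB protein and release E2F factors such as E2F1, whose targets include cyclin E2 (CCNE2), a partner of CDK2, and CDC6, which loads the replicative helicase at origins. The inhibitors p21 (CDKN1A) and p27 (CDKN1B) bind cyclin-CDK complexes and restrain the passage into S phase. In breast and endometrial cells that carry the estrogen receptor, estrogens are known to promote this transition.

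The data came from 2 human lines, Ishikawa, derived from an endometrial adenocarcinoma, and T-47D, derived from a breast carcinoma. Cells kept in hormone-depleted medium received DMSO, the vehicle, or 10 nM E2 (17β-estradiol), for 1 h before ChIP of a protein and for 8 h before ChIP of a histone mark. The DMSO and E2 lists covered H3K4me3, H3K4me1, H3K27me3, TAF1, MYC, MAX, JUN, LSD1 and RARA in both lines and RNAPII in T-47D cells only, whereas SIN3A was mapped in full and in stripped media and H3K36me3 once, in Ishikawa cells in full media. Only RNAPII had replicates (2 libraries with DMSO and 2 with E2), so all other comparisons set 1 library against 1 and carry no test; the labels do not say whether the RNAPII replicates were separate cultures, so p-values measure only the spread between these libraries.

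The 45 lists, 21 from Ishikawa and 24 from T-47D cells, held between 2 and 46282 regions, and the lists do not state the sequencing depth. H3K4me3 marked the start sites of 4 of 5 endometrial markers in Ishikawa cells (not SOX17) and 1 of 5 in T-47D cells, and those of 5 of 6 luminal breast markers in T-47D cells (not TFF1) and 3 of 6 in Ishikawa cells. All 4 epithelial markers were marked in both lines. Of the markers of other cells, the fibroblast gene COL1A1 was marked in both lines and the leukocyte gene PTPRC in neither. Some lists stood apart. The regions of H3K27me3, a mark of repressed chromatin, lay on H3K4me3 regions of the same line and treatment in 81.6% (Ishikawa, DMSO), 96.4% (Ishikawa, E2) and 85.7% (T-47D, DMSO) of cases, and 13 of 13, 22 of 23 and 32 of 36 did so at the member loci. The T-47D JUN regions lay on RNAPII regions of the first replicate in 87.2% (DMSO) and 78.6% (E2) of cases, and 100 of 119 and 68 of 71 did so at the member loci. The labels of the H3K27me3 and T-47D JUN lists were not checked against the reads, so their values hold only if the labels are right. The Ishikawa MYC lists held 61 and 2 regions, none of them at a member locus, and the H3K36me3 list of 114 regions also held none there. The T-47D H3K27me3 list with E2 held 107 regions, 91 of them at most 100 bp wide, and none at the start of any gene.

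Several lists held 6 or all 7 of the start sites. In Ishikawa cells H3K4me3 lay at the start sites of 6 members with DMSO (67.2% of all genes) and of all 7 with E2 (68.1%), and TAF1, a subunit of TFIID, lay at all 7 with DMSO (59.8%) and with E2 (55.7%). SIN3A, the scaffold of a histone deacetylase complex, was found at all 7 Ishikawa start sites in stripped (59.4%) and in full media (50.4%). In T-47D cells H3K4me3 lay at the same 6 start sites, all but E2F1, with DMSO (62.0%) and with E2 (58.8%). Among the RNAPII libraries, the first ones held all 7 start sites with DMSO (64.0% of all genes) and with E2 (59.5%), and the second ones held 6, without E2F1 (46.4% with DMSO and 51.6% with E2). The T-47D JUN lists held all 7 with DMSO (57.7%) and with E2 (60.4%).

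The remaining lists held from 1 to 6 of the 7, or none. In Ishikawa cells H3K4me1, a mark of enhancers, lay at 2 start sites with DMSO (8.58% of all genes) and 2 with E2 (7.39%), and MAX at 1 with DMSO (10.1%) and none with E2 (4.37%). LSD1, a histone demethylase, lay at 4 Ishikawa start sites with DMSO (16.6%) and 6 with E2 (40.5%). JUN, a subunit of AP-1, lay at 3 with DMSO (3.97%) and 6 with E2 (32.6%), and H3K27me3 at none with DMSO (2.49%) and 4 with E2 (25.3%). RARA, a retinoic acid receptor, lay at none with DMSO (0.695%) and 2 with E2 (8.80%). In T-47D cells TAF1 lay at 4 with DMSO (23.0%) and 5 with E2 (27.9%), and H3K27me3 at 6 with DMSO (22.5%) and none with E2 (0%). MYC lay at 3 T-47D start sites with E2 (7.32%) and MAX at 2 with E2 (7.02%), and both at none with DMSO (2.60% and 0.705%). SIN3A lay at 1 T-47D start site in stripped (0.223%) and 1 in full media (3.26%), and RARA at 1 with DMSO (4.21%) and 1 with E2 (3.99%). Over all lists a member start site was occupied in 71 pairs of gene and list in Ishikawa cells and in 76 in T-47D cells, and these counts fell to 40 and 42 when the outermost 5′ start of each gene was used alone. The number of annotated starts differed, 1 for E2F1, 6 for CCND1, 7 for CCNE2 and CDC6, 8 for CDKN1A and CDKN1B and 14 for MYC, so the order of the members by lists depended on this choice. With the outermost start alone CDC6 had 10 Ishikawa and 13 T-47D lists, CCND1 9 and 10, CCNE2 7 and 6, MYC 6 and 7, E2F1 5 and 5, CDKN1A 3 and 1, and CDKN1B 0 and 0. The outermost start is the canonical one at CCND1, E2F1 and CDC6. It lies upstream of the canonical one at the other members, farthest at CDKN1B (chr12:12838432 against 12870302).

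**Figure D1:**
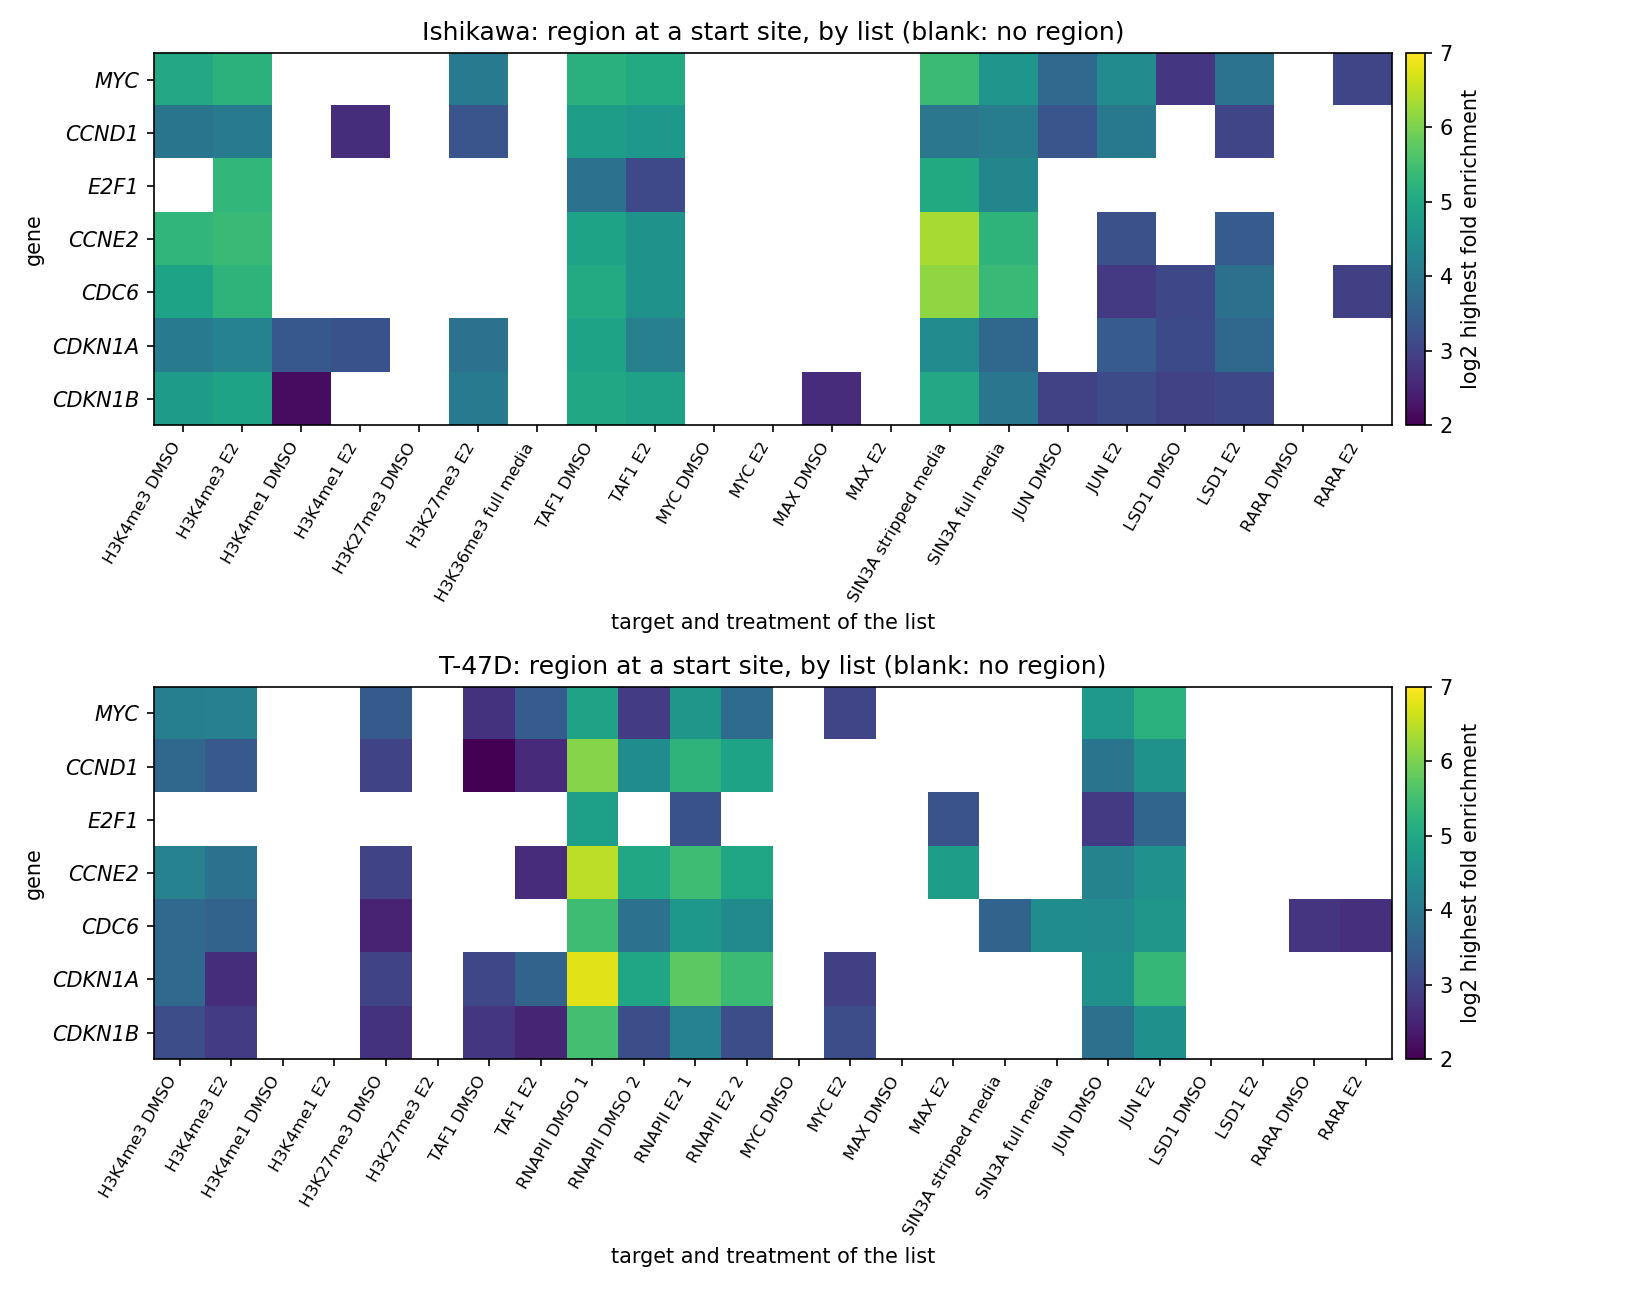
Highest fold enrichment (log2, colour) of a region at a start site of each gene (rows) in each Ishikawa list (upper panel) and T-47D list (lower panel), with blank cells where no region was found. With any annotated start counted, E2F1 is the emptiest row in both panels (5 of 21 and 5 of 24 lists). With the outermost start alone CDKN1A (3 and 1) and CDKN1B (0 and 0) held fewer, but their outermost starts lie upstream of the canonical ones. The H3K4me3, TAF1 and SIN3A columns of Ishikawa and the RNAPII and JUN columns of T-47D cells are the fullest.

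MYC (chr8:128747680-128755197, plus strand) had a start-site region in 12 of 21 Ishikawa and 12 of 24 T-47D lists, more than 95.02% and 90.57% of all genes, and in 6 and 7 at the outermost of its 14 starts alone. No other protein-coding gene lies in its window. The H3K4me3 region at its start reached a fold enrichment over background of 32.57 with DMSO and 37.04 with E2 in Ishikawa cells, and 18.0 and 18.0 in T-47D cells. MYC protein itself was detected at the MYC start only in the T-47D E2 list, at 8.29-fold, a height above 40.6% of that list. Away from the start, Ishikawa lists piled up in PVT1, the long noncoding RNA gene downstream of MYC. The region around 74.0 kb downstream of the MYC start (chr8:128821616-128823404) was found in 13 of 21 Ishikawa and 6 of 24 T-47D lists, its neighbour at 75.8 kb (chr8:128823503-128824999) in 12 and 1, and the region at 83.8 kb (chr8:128831431-128833095) in 12 and 6. In T-47D cells the distal region in most lists was the PVT1 start itself, in 7 of 24 T-47D and 8 of 21 Ishikawa lists.

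CCND1 (chr11:69455924-69469242, plus strand) was occupied at a start site in 11 of 21 Ishikawa and 11 of 24 T-47D lists. Its upstream flank was shared between the lines. A T-47D region centred at −3.28 kb from its start (chr11:69450924-69454365) was found in 13 of 24 T-47D and 11 of 21 Ishikawa lists, and it held MAX with DMSO and with E2 (8.56-fold and 14.2-fold near −4.5 kb) and MYC with E2 in T-47D cells. A region in an intron of FGF19, 59.8 kb downstream (chr11:69515389-69516030), was found in 12 of 21 Ishikawa lists and in no T-47D list. CCND1 was also the member with the most regions in its own body, 25 in Ishikawa and 41 in T-47D lists. RNAPII regions in the CCND1 body numbered 5 and 0 in the libraries with DMSO, against 7 and 8 with E2. Over its whole locus the groups overlapped (20 and 6, then 30 and 17). Body regions also separated at MYC (0 and 0, then 3 and 2) and CCNE2 (0 and 0, then 1 and 1), and not at the other members. At CCNE2 the body region lay at the start of NDUFAF6, within chr8:95907745-95908451. No RNAPII region of the CCNE2 window was absent from both DMSO libraries and present in both E2 libraries. The share of all genes whose body regions separated was not counted.

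E2F1 (chr20:32263283-32274191, minus strand) had a start-site region in 5 of 21 Ishikawa and 5 of 24 T-47D lists, the fewest of the members when any annotated start counted, against medians over all genes of 6 and 7. It has 1 annotated start, and with 1 start per gene, the outermost, it was above CDKN1A and CDKN1B. The outermost starts of those 2 genes (chr6:36644237 and chr12:12838432) lie upstream of their canonical starts (36646491 and 12870302). That comparison therefore does not set E2F1 against their canonical starts, which were not counted alone. The window of 250 bp also bore on the count. The H3K4me3 regions flanked the single annotated E2F1 start: with DMSO the nearest began 262 bases away in Ishikawa and 397 bases away in T-47D cells, and a taller region of 36.7-fold and 15.3-fold lay 488 and 523 bases inside the gene. With a window of 1000 bp, E2F1 was occupied in 9 Ishikawa and 8 T-47D lists. TAF1 lay at the start in Ishikawa cells at 14.6-fold with DMSO and 8.56-fold with E2, and SIN3A at 32.9-fold and 19.7-fold in stripped and full media. In T-47D cells MAX lay at the E2F1 start with E2 only, at 9.67-fold (chr20:32274184-32274464), a height above 30.5% of that list. Of the distal regions, one centred at −7.71 kb (chr20:32281089-32282711) was found in 12 of 21 Ishikawa lists and no T-47D list.

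The 250 bases before the E2F1 start, which the T-47D MAX region covers, and the 201 bases around the tallest summit of a protein, histone marks aside, in the Ishikawa region upstream of it (SIN3A in stripped media, 16.1-fold) are given because the first held MAX in T-47D cells with E2 only and the second was found in no T-47D list. Capitals mark matches to any of 4 motifs on either strand, the E-box CACGTG, the AP-1 motif TGANTCA, the estrogen response element and the E2F motif TTTNGCGC. The promoter (chr20:32274192-32274441, minus strand, 5′ to 3′) held 1 E2F match and no E-box, and the upstream window (chr20:32281602-32281802, plus strand) held none of the 4.
E2F1 promoter: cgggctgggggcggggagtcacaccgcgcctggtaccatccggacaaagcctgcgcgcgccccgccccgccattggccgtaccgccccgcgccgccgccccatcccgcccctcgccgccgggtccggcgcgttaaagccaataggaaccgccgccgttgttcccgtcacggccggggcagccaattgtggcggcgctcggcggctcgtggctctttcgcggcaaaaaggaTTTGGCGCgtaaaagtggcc
E2F1 upstream site: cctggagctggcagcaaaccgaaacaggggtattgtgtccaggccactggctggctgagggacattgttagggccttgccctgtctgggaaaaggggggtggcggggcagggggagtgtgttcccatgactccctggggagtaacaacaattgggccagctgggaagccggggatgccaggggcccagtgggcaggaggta

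CCNE2 (chr8:95891998-95908906, minus strand) was occupied in 8 of 21 Ishikawa and 11 of 24 T-47D lists, and with a window of 1000 bp in 13 Ishikawa lists. Its start sites lie beside those of NDUFAF6, transcribed from the other strand. MAX was found there in all 4 MAX lists, at 13.1-fold with DMSO and 16.2-fold with E2 in Ishikawa cells, and 11.9-fold with DMSO and 27.7-fold with E2 in T-47D cells, with summits between −0.626 and −0.557 kb of the canonical CCNE2 start. The last of these stood above 99.9% of its list and was the only one to touch the CCNE2 window itself. MYC with E2 (9.86-fold) and SIN3A in full media (10.96-fold) shared this site in T-47D cells. In Ishikawa cells the SIN3A region at the CCNE2 start reached 81.6-fold in stripped and 38.3-fold in full media, above 99.8% and 99.4% of those lists. CCNE2 had few distal regions, 29 in Ishikawa and 37 in T-47D lists, and 21 and 33 of them lay at another coding start.

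CDC6 (chr17:38444131-38460909, plus strand) was occupied in 10 of 21 Ishikawa and 13 of 24 T-47D lists. It was the only member with SIN3A at its start in T-47D cells, at 12.1-fold in stripped media (above 80.0% of that list) and 21.5-fold in full media (above 97.4%). It was also the only member with RARA at its start in T-47D cells, at 6.70-fold with DMSO and 6.44-fold with E2, and RARA lay there with E2 in Ishikawa cells at 7.74-fold. Its window held the most regions of the 7, 167 in Ishikawa and 296 in T-47D lists, but 156 and 281 of these were distal and only 1 lay in the CDC6 body. The window takes in most of the RARA gene, and the region found in most T-47D lists (14 of 24) was a stretch of RARA centred 32.5 kb downstream (chr17:38471986-38481270), also found in 13 of 21 Ishikawa lists.

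The 250 bases before the CDC6 start (chr17:38443881-38444130, plus strand), which the RARA regions of both lines and the SIN3A regions overlap, are given because no other member start held SIN3A or RARA in T-47D cells. They held none of the 4 motifs, so the sequence has no capitals.
CDC6 promoter: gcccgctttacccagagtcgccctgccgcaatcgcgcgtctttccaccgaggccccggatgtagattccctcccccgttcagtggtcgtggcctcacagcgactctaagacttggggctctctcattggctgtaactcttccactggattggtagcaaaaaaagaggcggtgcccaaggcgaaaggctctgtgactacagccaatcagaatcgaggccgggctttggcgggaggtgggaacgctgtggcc

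CDKN1A (chr6:36644237-36655114, plus strand) was occupied in 12 of 21 Ishikawa and 12 of 24 T-47D lists, and in 3 and 1 at its outermost start alone. Its start carried the tallest RNAPII region among the members, 110-fold in the first DMSO, 53.5-fold in the first E2 and 42.5-fold in the second E2 library, and came after that of CCNE2 only in the second DMSO library (30.8-fold against 31.9-fold). It stood above 99.3% to 99.98% of each list. TAF1 there reached 29.8-fold with DMSO and 18.2-fold with E2 in Ishikawa cells, and 8.362-fold and 12.04-fold in T-47D cells. MYC lay at the start with E2 in T-47D cells at 7.72-fold, above 27.8% of that list. A distal site centred at −11.5 kb from the canonical start (chr6:36634670-36635401) was found in 14 of 21 Ishikawa lists, those of JUN, LSD1, TAF1, SIN3A, H3K4me3 and H3K27me3 under both conditions and those of MAX and RARA with E2, and in T-47D cells in the 2 JUN lists only.

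The tallest Ishikawa protein summit in that site came from JUN with E2, at 43.9-fold. The 201 bases around it (chr6:36634944-36635144, plus strand) are given because this is the CDKN1A site shared by the most Ishikawa lists. They held none of the 4 motifs as spelled, which says only that these letters are not in this window.
CDKN1A upstream site: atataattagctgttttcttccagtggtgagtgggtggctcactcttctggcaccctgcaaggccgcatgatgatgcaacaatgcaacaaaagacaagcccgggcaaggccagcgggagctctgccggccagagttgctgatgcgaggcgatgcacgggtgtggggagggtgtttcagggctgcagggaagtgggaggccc

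CDKN1B (chr12:12838432-12875303, plus strand) was occupied in 13 of 21 Ishikawa and 12 of 24 T-47D lists. Regions were counted at any of its 8 starts, and the outermost, at 12838432, lies far upstream of the canonical one, at 12870302. The tallest Ishikawa H3K4me3 region counted with DMSO (26.85-fold, chr12:12848847-12850008) lay between them. CDKN1B was occupied in none of either line at its outermost start alone, and in 7 and 4 lists when a fold enrichment of at least 10 was asked for. MAX lay at its start in Ishikawa cells with DMSO, at 6.23-fold, the only Ishikawa MAX region at a member start. MYC lay there in T-47D cells with E2 at 9.03-fold (chr12:12870275-12870634), above 56.2% of that list. The region 7.59 kb downstream of the canonical start, which takes in the start of APOLD1 (chr12:12876480-12879308), was in 15 of 21 Ishikawa and 9 of 24 T-47D lists. A site in an intron of APOLD1, 86.0 kb downstream (chr12:12956013-12956520), was in 14 of 21 Ishikawa lists and in no T-47D list.

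The 250 bases before the canonical CDKN1B start (chr12:12870052-12870301, plus strand) are given because this was 1 of 3 member starts with a MYC region in T-47D cells. The MYC region begins at their edge, and its summit lay 0.125 kb after the start, outside the printed bases. The 201 bases around the tallest protein summit of the APOLD1 intron site (JUN with E2 in Ishikawa cells, 16.4-fold, chr12:12956244-12956444, plus strand) are given because no T-47D list held that site. The promoter held none of the 4 motifs, and the intron site held 1 AP-1 match, in capitals, which began 15 bases after the summit.
CDKN1B promoter: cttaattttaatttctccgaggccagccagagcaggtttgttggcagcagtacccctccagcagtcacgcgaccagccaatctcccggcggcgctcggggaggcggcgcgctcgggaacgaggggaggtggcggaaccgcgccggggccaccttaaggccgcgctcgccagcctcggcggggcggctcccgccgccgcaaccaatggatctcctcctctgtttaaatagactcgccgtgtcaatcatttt
CDKN1B intron site: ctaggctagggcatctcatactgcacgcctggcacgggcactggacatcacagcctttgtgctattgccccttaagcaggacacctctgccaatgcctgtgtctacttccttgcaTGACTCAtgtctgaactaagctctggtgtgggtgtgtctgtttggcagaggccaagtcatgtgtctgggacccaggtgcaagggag

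**Figure D2:**
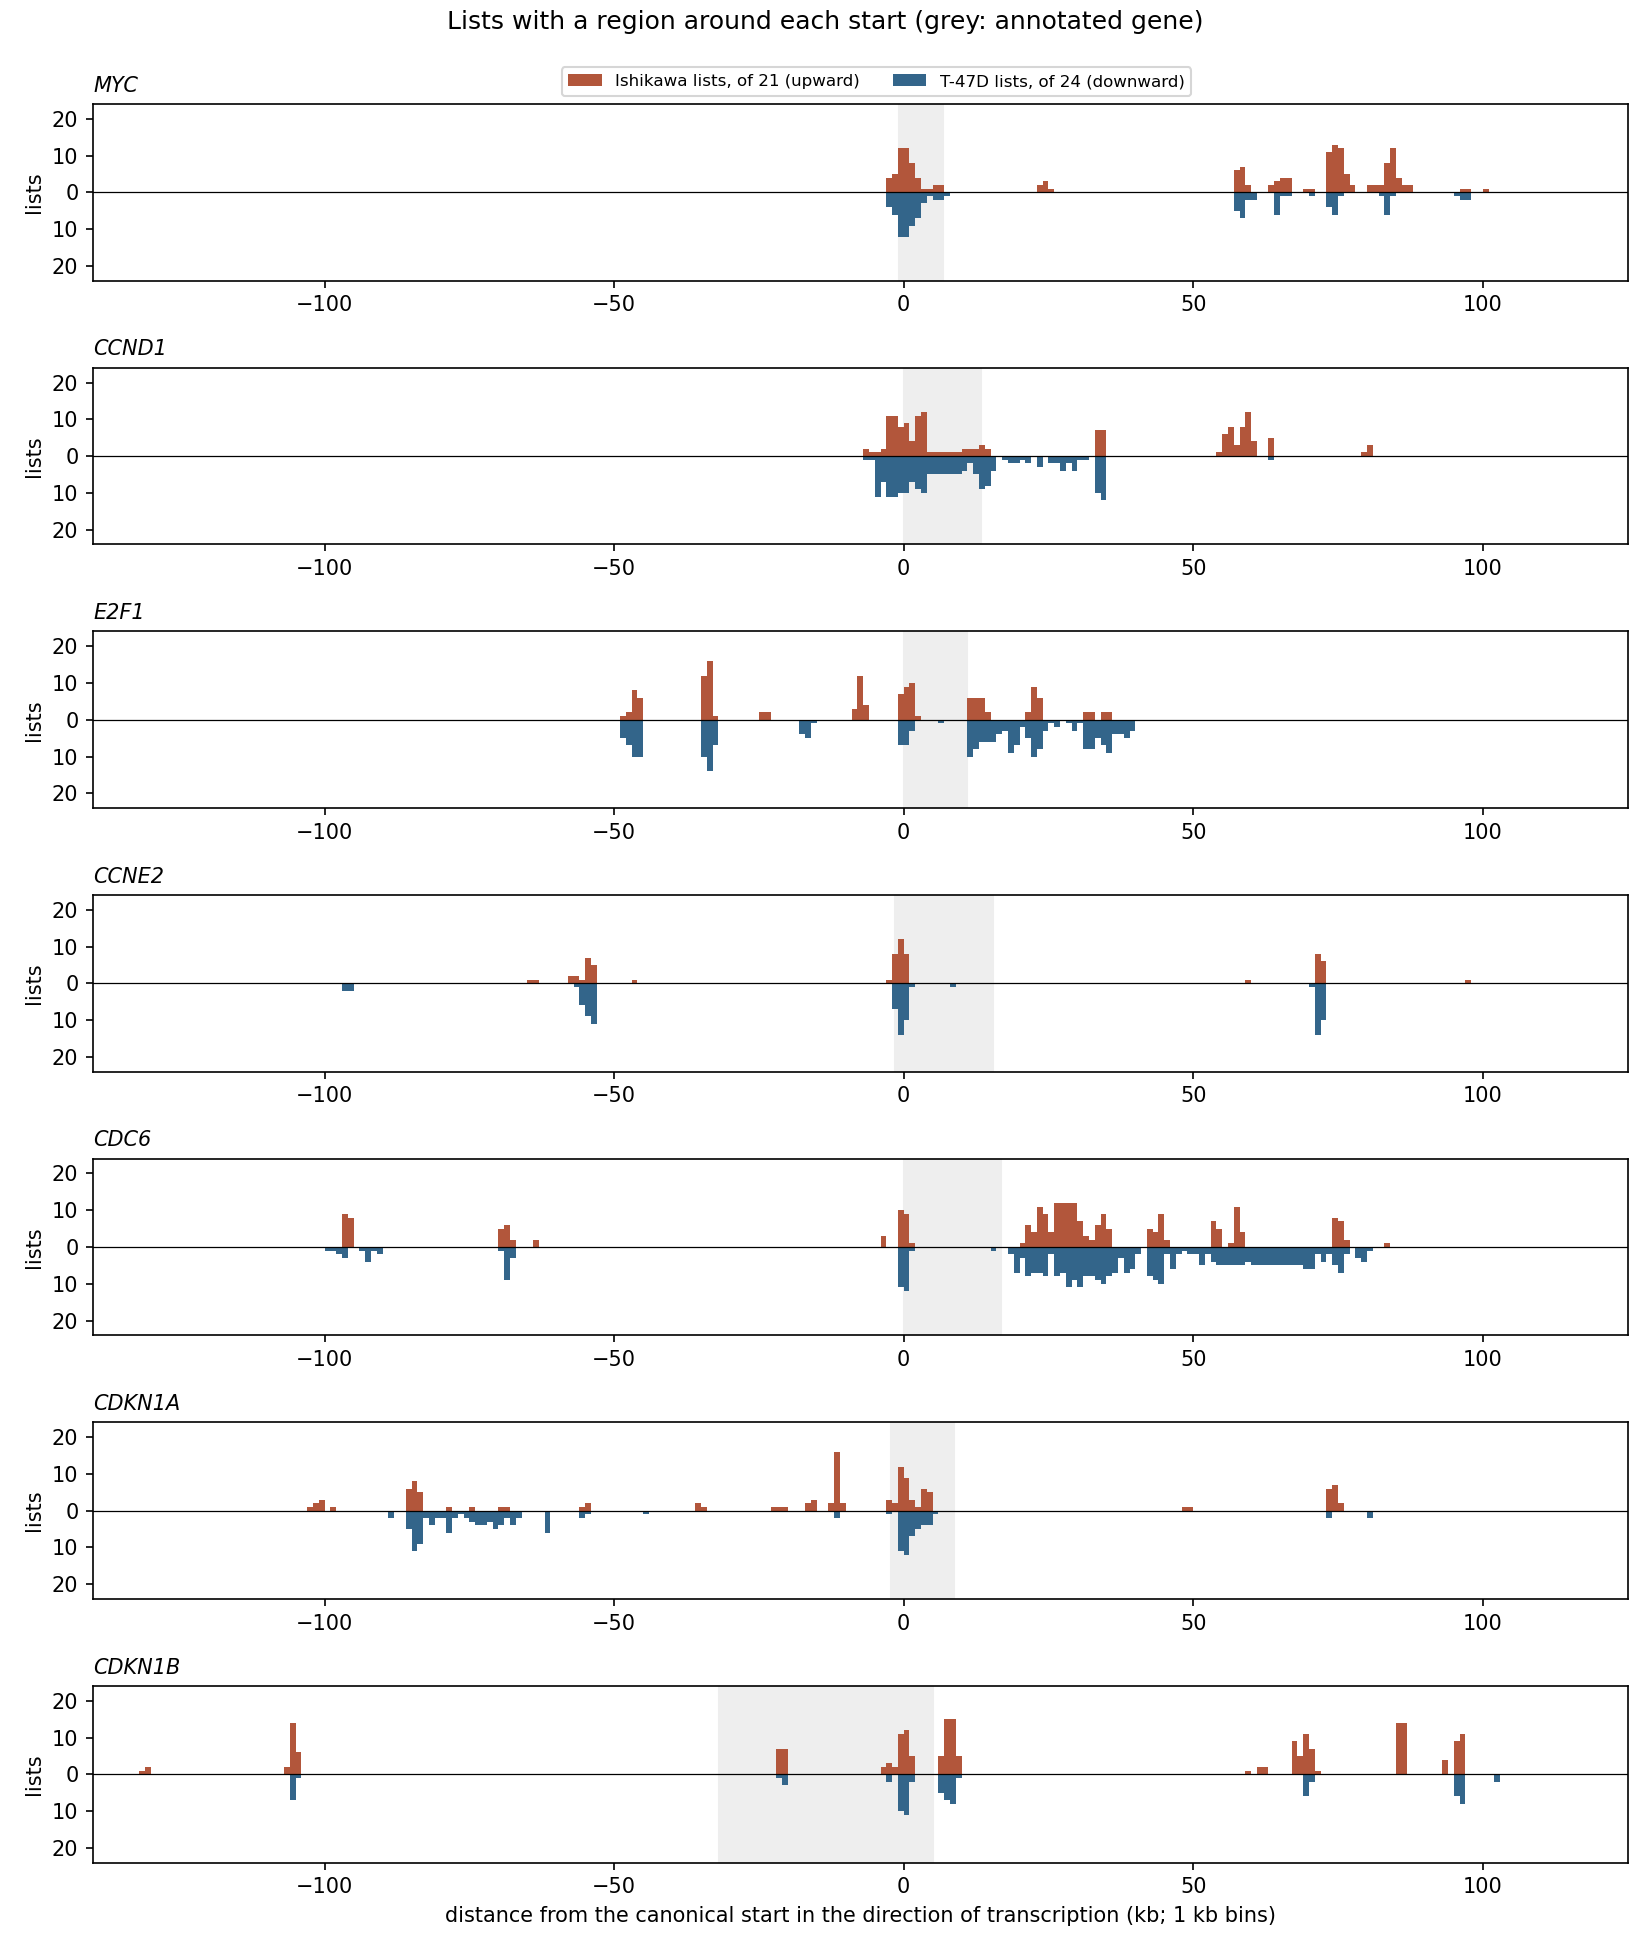
Number of lists with a region in each 1 kb bin around the canonical start of each gene (distance in kb along the direction of transcription), with Ishikawa lists drawn upward and T-47D lists downward and the annotated gene in grey. Upward bars without a downward partner stand near −7.71 kb at E2F1, near 59.8 kb at CCND1 and near 86.0 kb at CDKN1B, and the CDC6 locus is filled downstream of the gene, over RARA.

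Sites held by many lists of 1 line were not particular to these genes. Merging all regions of the 21 Ishikawa lists gave 53547 sites, of which 2199 (4.11%) were in 12 or more lists, and 510 of those 2199 (23.2%) overlapped no T-47D region. At the member loci 18 sites were in 12 or more Ishikawa lists, and 3 of these 18 overlapped no T-47D region: the E2F1 upstream, the CCND1 downstream and the CDKN1B intron site. In T-47D cells 1788 of 65552 merged sites (2.73%) were in 12 or more lists, and only 15 of those 1788 (0.839%) overlapped no Ishikawa region. At the member loci there were 11 such T-47D sites, and all 11 overlapped an Ishikawa region, as did nearly all of the 1788.

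The first question on treatment was whether the lists held other numbers of regions at the 7 loci with E2. The number of regions was higher with E2 (or full media) in 11 of the 20 pairs of lists, and in 5 when the longer list of each pair was shortened to the length of the shorter one by −log10 p. Of these 5, Ishikawa LSD1 (24 and 31 after shortening) and T-47D H3K4me3 (84 and 91) were among the 11. The others, Ishikawa H3K4me1, TAF1 and SIN3A, had been lower in the whole lists. Before shortening, list length moved with most of the differences, and list lengths are given beside them.

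JUN differed most in Ishikawa cells in number of regions, with 23 at the 7 loci with DMSO and 70 with E2 (3.04 times), while the whole list held 3768 and 18311 regions (4.86 times). CDC6 went from 2 to 16 JUN regions, CDKN1B from 2 to 11, CCND1 from 7 to 17, CDKN1A from 2 to 9, E2F1 from 1 to 7 and CCNE2 from 0 to 2, and MYC went from 9 to 8. At MYC the covered length was 3.322 kb with DMSO and 8.773 kb with E2, and the start-site region reached 13.1-fold and 21.3-fold. JUN regions appeared at 3 member start sites, CCNE2, CDC6 and CDKN1A, where 28.7% of all genes gained one. With the E2 list shortened to 3768 regions the 7 loci held 20, and no member start was gained. In T-47D cells the number of JUN regions went the other way, from 119 to 71 with 28703 and 24885 in the lists, and it was lower at 6 of the 7 loci (CDKN1B held 5 in both). The covered length went from 81645 to 70282 bp, and it was longer with E2 at CCND1 (14.37 and 16.82 kb), CCNE2 (4.372 and 4.881 kb) and CDKN1B (3.725 and 5.861 kb). The start-site fold enrichment of JUN was higher with E2 at all 7 members, as at MYC (25.8-fold and 36.7-fold) and CDKN1A (22.8-fold and 40.2-fold), in 1 library each. The whole T-47D JUN list was also taller with E2, with a median of 10.8-fold with DMSO and 13.5-fold with E2. The share of all genes with a higher fold was not counted. Among regions of at least 10-fold enrichment the T-47D numbers were 54 and 55.

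LSD1 in Ishikawa cells held 24 regions at the 7 loci with DMSO and 55 with E2, and 8618 and 18384 in its lists. The E2 numbers were higher at 6 loci and the same at MYC (6 and 6), and the start sites of CCND1 and CCNE2 were gained, where 24.4% of all genes gained one. After shortening the list, 31 regions and the CCNE2 gain were left (7.54% of all genes). In T-47D cells LSD1 had no region at the 7 loci with DMSO and 1 with E2, with 42 and 442 regions in the lists. RARA held 1 and 11 in Ishikawa cells, with 137 and 2883 regions in the lists, and held 2 and 2 in T-47D cells. The site at the start of PXMP4, near −34.0 kb from the E2F1 start, held RARA in all 4 lists, at 29.1-fold and 70.6-fold in Ishikawa and 26.4-fold and 23.5-fold in T-47D cells.

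H3K27me3 differed in opposite directions in the lines, which was not tested. In Ishikawa cells it went from 13 to 23 regions at the 7 loci and was gained at the start sites of MYC (16.9-fold), CCND1 (10.0-fold), CDKN1A (14.7-fold) and CDKN1B (16.4-fold), where 23.4% of all genes gained one, and the list grew from 2199 to 6992. After shortening, MYC, CDKN1A and CDKN1B were still gained (6.69% of all genes), although the number at the 7 loci went from 13 to 8. In T-47D cells it went from 36 regions to 0, and the list went from 6305 to 107. All members but E2F1, which had no start-site region with DMSO, lost theirs, where 22.5% of all genes lost one. The E2 list held a region at the start of 0 of 20136 genes, so every gene with a region lost it. Of its 107 regions, 91 were at most 100 bp wide. The overlap of the H3K27me3 regions with H3K4me3 is given above, and its part in the result was not tested.

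MYC and MAX had more regions with E2 in T-47D cells. MYC went from 3 to 10 regions at the 7 loci with 601 and 1822 in the lists, and was gained at the start sites of MYC, CDKN1A and CDKN1B, where 6.04% of all genes gained one. All 10 of the E2 regions lay on T-47D JUN regions with E2, as did 93.3% of the whole MYC list. MAX went from 2 to 6 with 199 and 1492 in the lists, and it overlapped the start windows of E2F1 and CCNE2 with E2 only, where 6.50% of all genes gained one. At CCNE2 MAX was present with DMSO too, at the site beside NDUFAF6, and the wider E2 region there reached into the CCNE2 window. With the lists shortened, MYC held 3 regions under both treatments and MAX 2, and no start-site gain was left for either protein but that one at CCNE2 (0.646% of all genes). In Ishikawa cells MAX went from 13 to 8 regions with 3368 and 2002 in the lists.

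For most other targets the numbers at the 7 loci lay closer together. In Ishikawa cells H3K4me3 held 73 and 82 regions (29597 and 31901 in the lists) and H3K4me1 94 and 84 (28411 and 22553). TAF1 held 52 and 49 (19349 and 16554), and SIN3A 54 in stripped and 50 in full media (20625 and 16458). In T-47D cells H3K4me3 held 89 and 91 (30774 and 29081), TAF1 11 and 16 (4591 and 5645), and SIN3A 1 and 2 (75 and 649). H3K4me1 in T-47D cells held 37 and 11 regions at the 7 loci and 6408 and 1960 in the lists, and both shortened lists held 11.

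**Figure D3:**
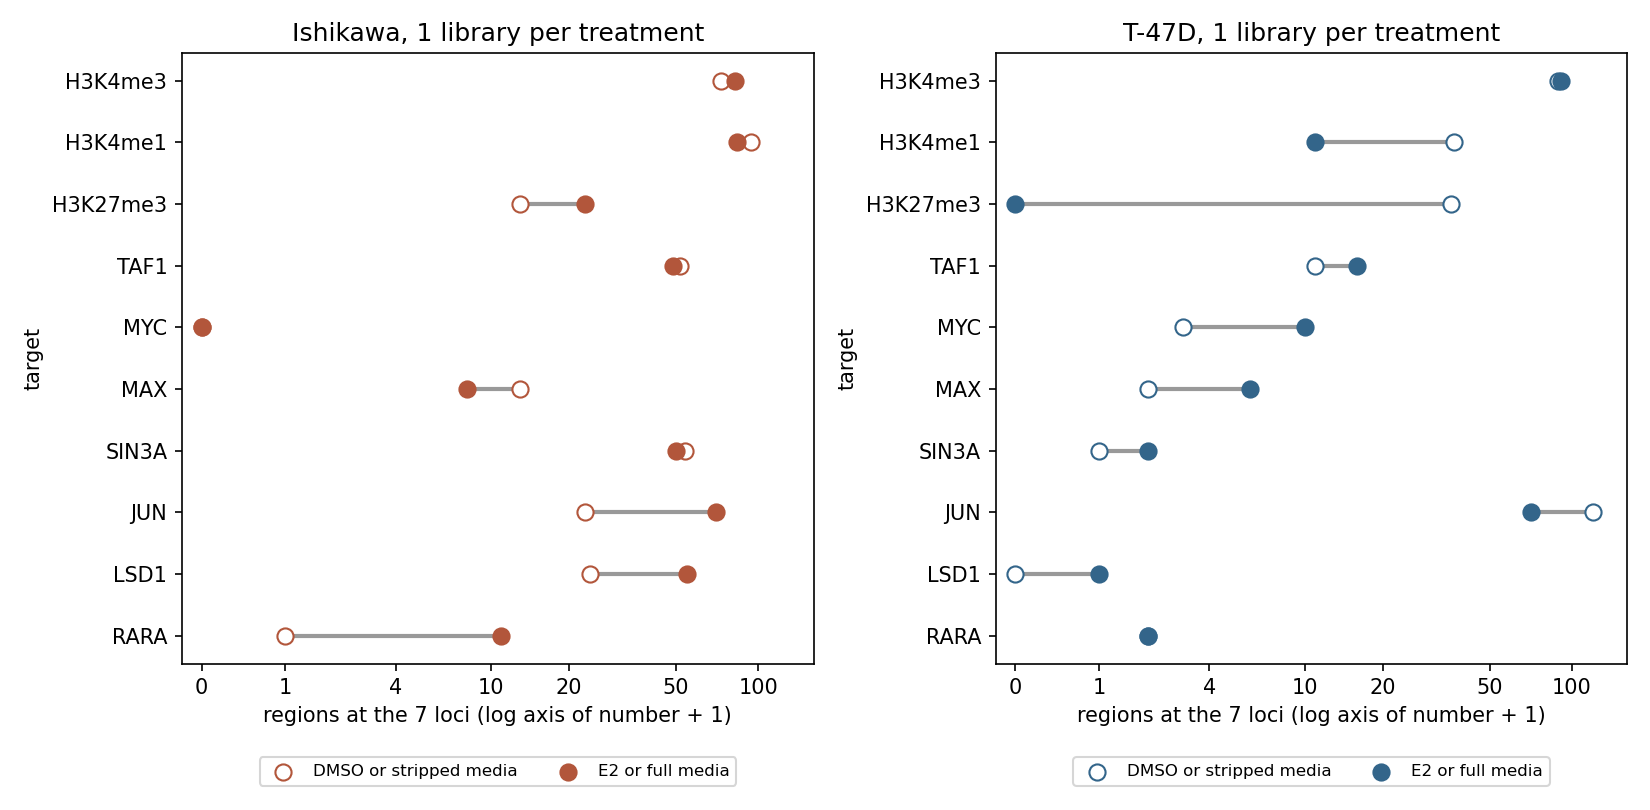
Number of regions at the 7 loci (log axis of the number + 1) for each target in Ishikawa (left) and T-47D cells (right), with open points for DMSO or stripped media and filled points for E2 or full media, 1 library each and no error. The widest gaps on this axis are T-47D H3K27me3 (36 and 0), Ishikawa RARA (1 and 11), T-47D H3K4me1 (37 and 11), Ishikawa JUN (23 and 70) and T-47D MYC (3 and 10).

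RNAPII in T-47D cells was the only target with a spread between libraries, and its numbers asked whether polymerase occupied more of each locus after 1 h of E2. At CCNE2 the DMSO libraries held 4 and 4 regions (mean 4 ± 0, SD, n = 2) and the E2 libraries 7 and 6 (6.5 ± 0.707, n = 2), so the groups did not overlap. At CDC6 they held 40 and 11 with DMSO (25.5 ± 20.5, n = 2) and 42 and 48 with E2 (45 ± 4.24, n = 2), again without overlap, although the first DMSO library lay close to the first E2 library. In each library CDC6 itself held 1 start-site region and 0 body regions. The others were distal, 39 and 10 with DMSO and 41 and 47 with E2, so the difference lay outside CDC6. CCNE2 and CDC6 were 2 of the 7 loci. Among the 18193 genes with an RNAPII region in such a window, 5.36% were higher with E2 without overlap and 0.841% were lower, as none of the 7 was. An exact two-sided permutation test over 2 against 2 libraries cannot give a p below 0.3333, the value at both loci, with 0.933 after Benjamini-Hochberg adjustment over the 7.

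At the other members the groups overlapped. MYC held 9 and 5 regions with DMSO and 19 and 8 with E2. CCND1 held 20 and 6, then 30 and 17. CDKN1B held 9 and 1, then 10 and 5. These 3 genes were higher with E2 within each replicate number but the groups overlapped, and the first library of each group held more regions than the second. E2F1 (28 and 13, then 30 and 13) and CDKN1A (16 and 15, then 20 and 15) were level in the second replicate. The count of 2 loci changed with the libraries used. It was 5 without the first DMSO library (37.0% of all genes) and 7 without the second E2 library (42.0%). It stayed at 2 without the second DMSO or the first E2 library. CCNE2 and CDC6 were called each time, and leaving out a library relaxes the rule by construction. With the libraries paired by replicate number, 5 loci were higher with E2 in both pairs (20.2%). Both CCNE2 and CDC6 lost the call with 50 kb on each side and at a fold enrichment of at least 10, and CCNE2 lost it in covered base pairs.

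The fold enrichment of RNAPII at the start sites did not separate the treatments at any member, and the first DMSO library was the highest at all 7. That library had a mean fold enrichment of 24.8 over its whole list, against 11.6 to 15.3 in the others. By rank within each list, the share of regions with a lower fold, the groups did not overlap, with E2 higher, at CCND1 (91.9% and 94.8%, then 97.2% and 97.6%), CDC6 (80.25% and 77.8%, then 85.1% and 87.4%) and CDKN1A (99.8% and 99.3%, then 99.98% and 99.82%), which was not tested. The share of all genes that separated by rank was not counted, so these genes are not set apart from others by it. MYC reached 29.6-fold and 7.38-fold with DMSO and 25.0-fold and 13.4-fold with E2. CCND1 reached 67.9-fold and 21.6-fold, then 38.2-fold and 29.9-fold. CCNE2 reached 90.8-fold and 31.9-fold, then 43.6-fold and 31.1-fold. E2F1, with 28.2-fold in the first DMSO and 9.62-fold in the first E2 library, had no start-site region in either second replicate. CDC6 ranged from 14.6-fold to 43.8-fold and CDKN1B from 9.24-fold to 45.3-fold over the 4 libraries.

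**Figure D4:**
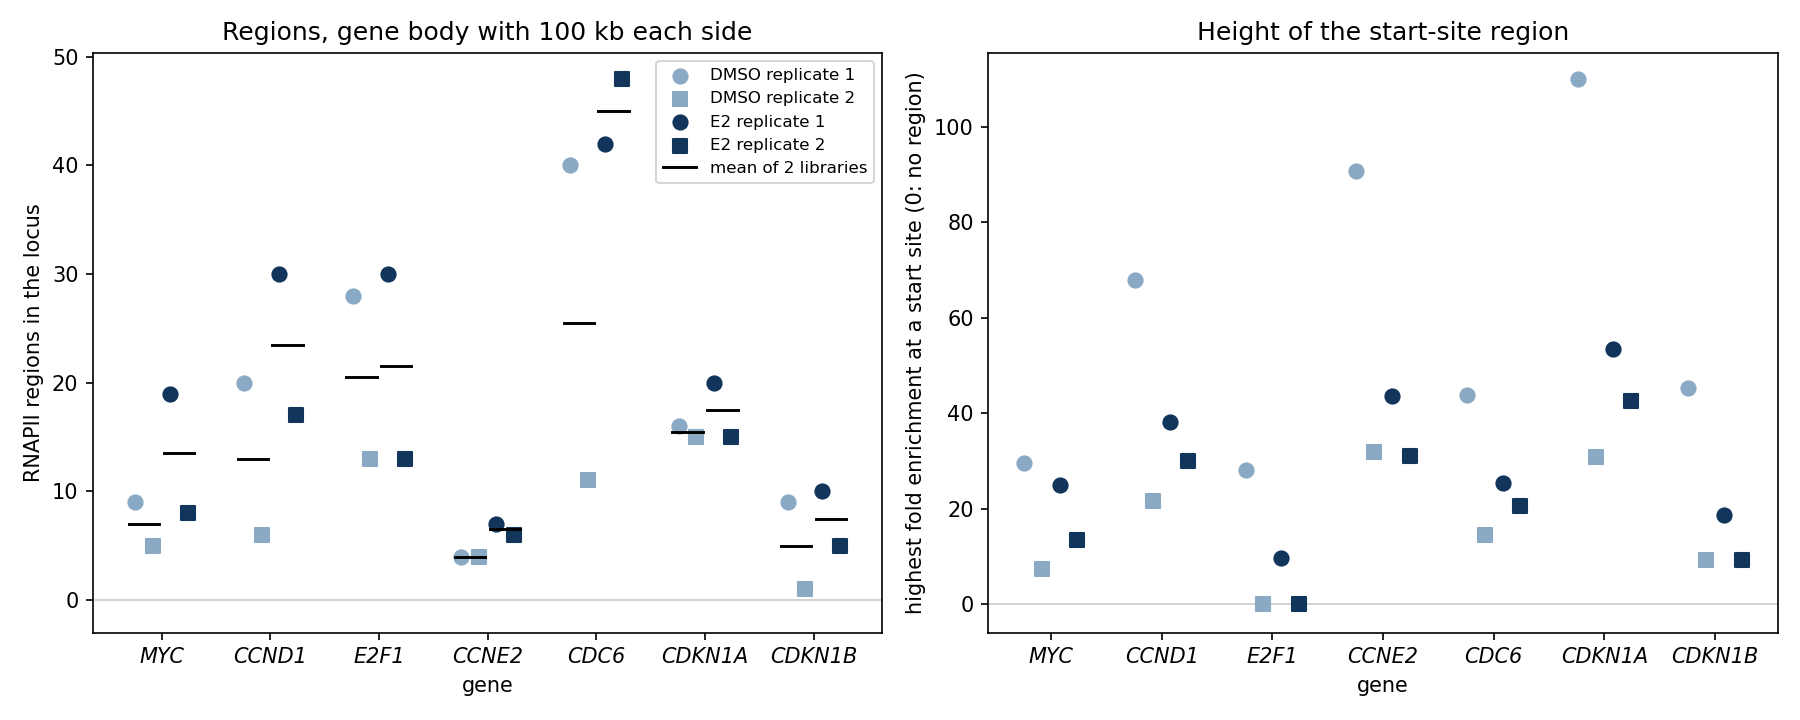
RNAPII in the 4 T-47D libraries at each gene, as the number of regions in the locus (left, black lines are means of 2 libraries) and as the highest fold enrichment at a start site (right, 0 where no region was found). The E2 points lie above both DMSO points in region number at CCNE2 and CDC6, and the first DMSO library is the highest in height at all 7 genes.

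Regions found in both E2 libraries and overlapping neither DMSO library were called gained. There were 934 over the genome, and 7 of them fell at 4 of the 7 loci, where 6.71% of all genes had one in their window. None of the 115 lost regions did, where 2.37% of all genes had one. MYC gained a region over its 3′ end (chr8:128753809-128755496, 20.2-fold and 12.2-fold), and CCND1 one over an exon 11.04 kb inside the gene (chr11:69466670-69467254, 12.1-fold and 5.28-fold).

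CDKN1B had a gained region at a start of DDX47, 103 kb away. The 4 gained regions of the CDC6 window lay outside CDC6, in RAPGEFL1 (10.6-fold and 7.99-fold), in introns of RARA (2 regions), and at the start of the noncoding gene GJD3-AS1 (15.2-fold and 7.95-fold). Gained regions depended on the libraries: there were 32 without the first DMSO library, 14 without the first E2 library and 43 without the second, and the lost ones numbered 14 without the second DMSO library. Genome-wide numbers with a library left out were not counted.

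One RARA intron region gained by RNAPII (chr17:38496641-38496937, plus strand, 10.8-fold and 5.69-fold) overlapped no region of any other target and is given as the one gained site away from a start that RNAPII alone marked. It held none of the 4 motifs.
CDC6 window, gained RNAPII region: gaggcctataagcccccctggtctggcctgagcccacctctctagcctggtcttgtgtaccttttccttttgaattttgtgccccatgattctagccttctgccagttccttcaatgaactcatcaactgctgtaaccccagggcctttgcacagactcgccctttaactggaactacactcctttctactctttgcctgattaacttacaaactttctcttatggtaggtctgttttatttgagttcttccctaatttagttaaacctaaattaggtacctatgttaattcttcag

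The motifs were counted at promoters and under summits. Of the 250 bases before the canonical start, the E2F motif was in 2 of the 7 promoters, CCND1 and E2F1, and in 1.91% of all 20136. The E-box was in none of the 7 (7.87% of all), nor was the AP-1 motif (4.73%) or the estrogen response element (0.0397%). Under the summits (100 bp either side), the E-box lay in 1 of 13 Ishikawa MAX regions at the 7 loci with DMSO and 31.8% of that list, and in 0 of 8 with E2 and 33.4% of the list. In T-47D cells it lay in 1 of 2 MAX regions with DMSO (75.4% of the list) and in 1 of 6 with E2 (27.65%), all of the T-47D matches being at the site near −4.5 kb from the CCND1 start. None of the 3 and 10 T-47D MYC regions held it (7.60% and 7.23% of the lists). AP-1 lay under 5 of the 70 Ishikawa JUN regions with E2 (7.14%, against 17.1% of the list), at MYC, E2F1, CDC6 and CDKN1B. It lay under 7 of the 119 and 4 of the 71 T-47D JUN regions with DMSO and E2, where 4.98% and 3.41% of the lists held it.

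The members were also compared by their start-site fold enrichment over the 45 lists. Pearson's r of log2(fold + 1), given as a description over lists that share libraries and depth, was highest for MYC and CDKN1B (0.924), CDKN1A and CDKN1B (0.890) and CCND1 and CDKN1A (0.887), and was 0.541 to 0.733 for E2F1 against the others and 0.615 to 0.782 for CDC6 against the others. Among genes elsewhere in the genome, PSMD14 followed MYC (r = 0.985) and KAZALD1 followed CDKN1A (r = 0.986), each without a list of differing presence. ZNF703 followed CCND1 (0.973) and ERP29 followed CCNE2 (0.972), each with 1 list that differed, and MRPS7 followed CDKN1B (0.957) likewise. CDC20, TROAP and FAM222B followed CDC6 (0.944, 0.941 and 0.937), and MORC4 followed E2F1 (0.929).

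A list of 49 other genes of the G1/S network was counted at start sites in the same way. H3K4me3 marked 49 of 49 in Ishikawa (67.2% of all genes) and 46 of 49 in T-47D cells (62.0%) with DMSO. MXD4, CCND2 and CDKN2D were marked in Ishikawa only. All 9 other E2F family genes, all 3 RB family genes and all 13 origin licensing genes were marked in both lines. JUN in Ishikawa cells went from 2 to 29 of the 49 with E2, where the share of all genes went from 3.97% to 32.6%. LSD1 went from 16 to 36 (16.6% to 40.5% of all genes), RARA from 1 to 15 (0.695% to 8.80%) and H3K27me3 from 0 to 30 (2.49% to 25.3%). In T-47D cells MYC went from 2 to 9 (2.60% to 7.32% of all genes) and MAX from 1 to 9 (0.705% to 7.02%), while H3K27me3 went from 15 to 0 (22.5% to 0%). RNAPII lay at 47 and 31 with DMSO (64.0% and 46.4% of all genes) and at 44 and 36 with E2 (59.5% and 51.6%).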

How the data were processed

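ChIP-seq libraries of Ishikawa and T-47D cells were used as peak lists, 1 per library, 45 in all, while the 4 input libraries had no list. Per the submitters' processing notes the authors aligned reads to hg19 with Bowtie (version 1.1.2) and called peaks with MACS2 (version 2.1.0.20140616). Each deposited region carries a score (derived from the p-value), the fold enrichment over local background as a ratio, −log10 of the p-value and −log10 of the q-value, all as the authors' peak caller wrote them. Replicates were not pooled. The total number of reads is not given in the lists, so the precision that depth gives is unknown.

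Genes, starts and exons were taken from GENCODE release 44 on GRCh37, and sequences from the GRCh37 assembly, which matches hg19. A region was counted at a locus where it overlapped the window by at least 1 bp. Motifs were searched in regions on the primary chromosomes. Comparisons were numbers of regions per list, with no test for 1 library against 1, and an exact permutation test for RNAPII. Scripts (Python 3.11.15, numpy 2.4.6, scipy 1.17.1) were tested on simulated lists. Alternatives were a window of 1000 bp, the outermost start alone, a fold enrichment of at least 10, lists shortened to equal length, 50 kb on each side, covered base pairs, a reciprocal overlap of 50%, leaving out each RNAPII library, and a replicate block. Genes named were the 7 members, the members of fixed lists, and the 3 genes over 1 Mb away with the most similar pattern. The members and lists were chosen with earlier results of these data known.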

Additional observations from a re-analysis of the deposited data

Results flagged for a closer look

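For 5 targets the number of regions at the 7 loci moved in opposite directions in the lines. With 1 library for each list, no test of this difference could be made. The log2 change in Ishikawa minus that in T-47D cells, with 1 added to each number, was 5.99 for H3K27me3 (13 to 23 regions in Ishikawa, 36 to 0 in T-47D) and 2.30 for JUN (23 to 70, and 119 to 71). It was -1.86 for MAX (13 to 8, and 2 to 6), -0.69 for SIN3A from stripped to full media (54 to 50, and 1 to 2) and -0.59 for TAF1 (52 to 49, and 11 to 16). The whole lists moved in the same direction as the 7 loci in each of these 10 pairs. The T-47D H3K27me3 list with E2 held only 107 regions and none at the start of any gene.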

How the results depend on the processing

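The pairs of gene and list with an occupied start fell from 71 to 40 (Ishikawa) and from 76 to 42 (T-47D) with the outermost start alone, and in T-47D cells to 50 at a fold enrichment of at least 10. With lists shortened to equal length, 5 of the 20 pairs instead of 11 held more regions with E2 or full media, and the log2 change at the 7 loci turned in Ishikawa cells for H3K4me3 (-0.040), H3K4me1 (0.20), H3K27me3 (-0.64), TAF1 (0.059), SIN3A (0.21) and JUN (-0.19). In T-47D cells it turned for H3K4me3 at a fold enrichment of at least 10 (-0.26) and in covered base pairs (-0.17), and for JUN at a fold enrichment of at least 10 (0.026).

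The number of loci whose RNAPII region numbers did not overlap, 2 (CCNE2 and CDC6), became 1 at a fold enrichment of at least 10 (CCND1), 4 with all lists shortened (MYC, CCND1, CCNE2 and CDC6), 0 with 50 kb on each side, and 2 to 7 when 1 library was left out. In covered base pairs there were also 2, MYC and CDC6. The share of all genes was not counted at a fold enrichment of at least 10, with lists shortened, with 50 kb or in covered base pairs. These counts are therefore not set against the whole genome. With the replicate number as a block, 5 loci were higher with E2 in both pairs (20.2% of all genes with a region), where 2 pairs cannot give a p below 0.5. Same-numbered libraries deviated together (r = 0.60 across 18193 genes), but nothing says that a number marks a shared culture. The 7 gained regions became 4 at a fold enrichment of at least 10 and 8 to 43 when 1 library was left out. The 0 lost regions became 1 with a reciprocal overlap of 50% and 0 to 14 when 1 library was left out. Genome-wide numbers of gained and lost regions were not counted under these alternatives. The cause of these changes was not tested, and leaving out a library relaxes the rule by construction. The lists state no depth, so a missing region is not shown to be absent binding.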
